A study of Mus musculus with 12 samples.

Results

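The epidermal growth factor (EGF) type ligands and their ERBB receptors were examined in SVR angiosarcoma xenografts treated with the MEK inhibitor trametinib, the VEGF receptor inhibitor cediranib, or both. The genes were chosen by name in the count table and comprise 10 of its 54232 genes. They are 4 receptors (Egfr, Erbb2, Erbb3 and Erbb4) and 6 ligands (Tgfa, Hbegf, Btc, Ereg, Areg and Nrg1), and each name matched a single gene. RNA sequencing covered 12 tumors, 3 per group. Control mice received vehicle, trametinib treated mice 1 mg/kg, cediranib treated mice 3 mg/kg, and combination treated mice both drugs at these doses, each by daily gavage. SVR is a line of mouse endothelial cells transformed with activated Ras, labelled C57BL/6, and all tumors grew under the skin of athymic nude mice, which lack mature T cells. The labels do not say that each tumor came from a separate mouse, so p-values measure the spread between these samples. Per the labels, dosing went on until a tumor ulcerated or passed a size limit, while the study's methods also describe an experiment ended at a fixed time. Days on drug are not given for each tumor here, and time on drug cannot be told apart from treatment.

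ERBB receptors are receptor tyrosine kinases that signal as pairs. EGFR binds TGF-alpha, amphiregulin (Areg), HB-EGF, epiregulin (Ereg) and betacellulin (Btc), neuregulin 1 (Nrg1) binds ERBB3 and ERBB4, and ERBB2 has no known ligand of its own but is the favored partner of the others. The receptors activate RAS, RAF, MEK and ERK, and ERK in turn induces transcription of several of the ligands, so that the pathway can feed itself. When MEK is blocked in tumor cells, receptors that ERK normally restrains, ERBB3 and ERBB2 among them, are known to increase in some cancers. In skin, keratinocytes make and respond to most of these ligands.

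Libraries held 9478865 to 11666094 counts. A filter on low counts left 12897 genes, and 6 of the 10 members passed it. Btc, Ereg, Areg and Erbb4 did not, with at most 13 counts in any library, and are described separately by their counts. Levels are CPM, which is a gene's counts relative to the total of its library, after scaling by TMM factors. Calls needed an FDR under 0.05 in edgeR's quasi-likelihood test (Benjamini-Hochberg over all genes tested) and a log2 fold change of 1.5 or more in size. RNA came from whole tumors of mouse cells in mouse hosts, so fewer cells of a type and less RNA per cell cannot be told apart. The libraries differed in markers of other cell types. The summed CPM of 24 epidermis markers was 24.9 to 641 in control, 5.44 to 12.1 in trametinib treated, 48.0 to 2930 in cediranib treated and 3010 to 4590 in combination treated tumors, and 10 of these markers, Krt1 and Ivl among them, had 0 counts in all 3 trametinib treated tumors. The summed CPM of 10 endothelium markers was 247 to 484 in control, 110 to 170 with trametinib, 153 to 381 with cediranib and 78.5 to 139 with the combination. For 10 macrophage markers the sums were 401 to 699 in control, 315 to 438 with trametinib, 293 to 451 with cediranib and 178 to 315 with the combination, so that control and combination did not overlap. Sums of skeletal muscle markers were 18.6 to 17100 in control and 37.3 to 504 with the combination, and those of adipocyte markers 12.3 to 22.5 and 8.72 to 22.9. With trametinib these sums were 249 to 24500 and 19.2 to 44.0, and with cediranib 18.7 to 155 and 12.2 to 42.0. Of 16 genes known to be induced by ERK, 9 were called lower with trametinib and 9 with the combination compared to control, with median log2 fold changes of -2.24 and -1.55 against 0.01 and 0.0 over all genes tested. Of all genes tested, 1.43% and 1.71% were called lower in these comparisons. With trametinib the calls with the smallest p were Egr1 at -4.49 (standard error, SE, 0.23), Dusp6 at -3.70 (SE 0.24) and Ccnd1 at -2.29 (SE 0.16), and with the combination Egr1 at -3.23 (SE 0.21), Ccnd1 at -1.60 (SE 0.16) and Phlda1 at -1.93 (SE 0.20). In cediranib treated tumors 0 of the 16 were called by edgeR, 0 by DESeq2, and 0 had an unadjusted p under 0.05.

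Both ligands of EGFR that passed the filter, Tgfa and Hbegf, fell in trametinib treated tumors compared to control. They were the members called in this comparison, 2 of 6 tested, and 2.4% of all genes tested were called (0.977% higher and 1.43% lower). In combination treated tumors 4 of the 6 were called, Tgfa and Hbegf lower and Erbb2 and Erbb3 higher, against 3.61% of all genes (1.91% higher and 1.71% lower). Comparing the combination with cediranib alone, 3 members were called, Erbb2 higher and Tgfa and Hbegf lower, against 2.45% of all genes (1.29% higher and 1.16% lower). With single libraries left out, the share of all genes called in combination against control was 2.09% without control replicate 2, 1.92% without control replicate 3, 2.4% without combination replicate 1 and 2.1% without combination replicate 2, and 97 genes were called higher and 96 lower in combination against cediranib without cediranib replicate 1. The comparisons with control share the same 3 control tumors, and those with the combination its 3 tumors. In cediranib treated tumors edgeR called 0 members and 0.0% of all genes. DESeq2 and edgeR's likelihood ratio test also called 0 members, and 1 member, Erbb3, had an unadjusted p under 0.05, as had 4.32% of all genes. For the difference in trametinib effect with and without cediranib edgeR, DESeq2 and the likelihood ratio test called 0 members, 0 had an unadjusted p under 0.05, and 7.05% of all genes had one. The values of the 2 groups did not overlap for 3 of the 6 members in trametinib against control (25.8% of all genes), 4 in combination against control (31.3%), 4 in combination against cediranib (28.4%), 3 in combination against trametinib (24.2%) and 0 in cediranib against control (7.76%). The median log2 fold change over the 6 members was 0.27 with trametinib, 0.09 with cediranib and -0.49 with the combination compared to control, and the median over all genes tested lay between 0.0 and 0.01. At an unadjusted p under 0.05 there were 3 members with trametinib (20.7% of all genes), 4 with the combination compared to control (27.2%) and 3 with the combination compared to cediranib (23.1%). Summed over Tgfa, Hbegf, Btc, Ereg and Areg, the EGFR ligands had 13.2 to 20.9 CPM in control and 14.4 to 20 CPM in cediranib treated tumors. The same sum was 2.34 to 4.27 CPM with trametinib and 4.09 to 5.05 CPM with the combination.

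**Figure D1:**
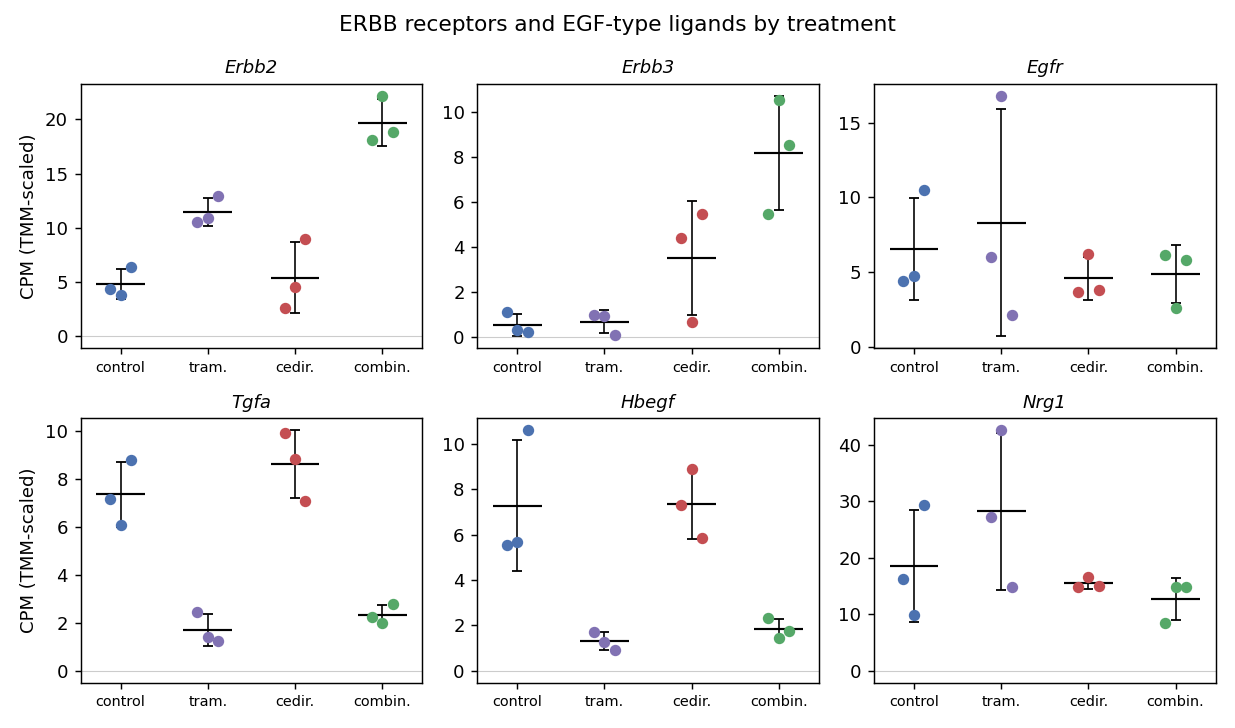
CPM of the 6 members tested (vertical axes, TMM-scaled) in control, trametinib (tram.), cediranib (cedir.) and combination (combin.) treated tumors. Points are single tumors, long bars the mean and whiskers the SD (n = 3). Tgfa and Hbegf lie between 0.921 and 2.78 CPM in all 6 tumors that received trametinib and between 5.54 and 10.6 CPM in the 6 that did not, Erbb2 runs in the opposite direction, and Erbb3 is highest with the combination.

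Tgfa encodes TGF-alpha, a ligand of EGFR that keratinocytes and many carcinomas produce. It lies at chr6:86195223-86275719 (GRCm38, plus strand). The control tumors had 7.15, 6.08 and 8.79 CPM and the trametinib treated tumors 2.45, 1.40 and 1.26 CPM. Cediranib treated tumors had 9.89, 8.80 and 7.08 CPM and combination treated tumors 2.22, 2.00 and 2.78 CPM. All 6 tumors that received trametinib therefore lay below all 6 that did not. Relative to control, Tgfa fell 4.28-fold in trametinib treated tumors (log2 fold change -2.10, SE 0.29, FDR 0.00162) and 3.13-fold in combination treated tumors (-1.65, SE 0.28, FDR 0.00624), from edgeR with Benjamini-Hochberg adjustment, as are the FDRs that follow. With cediranib it was 0.23 (SE 0.26, FDR 0.999). Adding trametinib to cediranib gave -1.87 (SE 0.28, FDR 0.00364). The effect of trametinib with cediranib differed from that without by 0.22 (SE 0.40, FDR 0.937). An unspliced transcript of the opposite strand, Gm43917, overlaps Tgfa exons, and because the strand setting of the counts is not given, reads of the pair cannot be told apart. Gm43917 had 3.24 to 5.66 CPM in control and 0.753 to 1.28 CPM in trametinib treated tumors.

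Hbegf encodes heparin-binding EGF-like growth factor, a ligand of EGFR and ERBB4 that is an early transcriptional response to ERK. It lies at chr18:36504929-36515805 on the minus strand. The level was 5.54, 5.68 and 10.6 CPM in control tumors and 1.72, 1.28 and 0.921 CPM in trametinib treated tumors. In cediranib treated tumors it was 7.29, 8.89 and 5.84 CPM, and in combination treated tumors 2.32, 1.45 and 1.76 CPM. As for Tgfa, the tumors given trametinib did not overlap with the others. Hbegf fell 5.52-fold with trametinib (log2 fold change -2.47, SE 0.35, FDR 0.0019) and 3.93-fold with the combination (-1.97, SE 0.34, FDR 0.00624), and under cediranib it differed from control by 0.02 (SE 0.31, FDR 0.999). Compared to cediranib alone, the combination gave -1.99 (SE 0.34, FDR 0.00639).

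Endothelium markers, which are also markers of the SVR line, moved with both ligands. Across the 12 libraries, which share treatment groups, the Pearson r with their summed level was 0.82 for Tgfa, 0.87 for Hbegf and -0.86 for Erbb2. When a score of 8 endothelium markers was held fixed in the model, Tgfa had -1.55 with trametinib (FDR 0.0936) and -0.99 with the combination (FDR 0.478), and Hbegf had -1.46 (FDR 0.105) and -0.77 (FDR 0.58), and these calls were lost. This score did not overlap between control (4.15 to 5.20) and trametinib treated tumors (2.69 to 3.27), so the score and the treatment cannot be told apart. With an epidermal score in the model, both calls with trametinib held, at -2.12 for Tgfa and -2.66 for Hbegf, and both with the combination were lost, at -1.60 (FDR 0.128) and -1.43 (FDR 0.216). The epidermal score did not overlap between control (-0.81 to 2.06) and trametinib treated (-1.66 to -1.34) or combination treated tumors (3.78 to 4.38). It too cannot be told apart from treatment. Without control replicate 3 Tgfa had -1.5 with the combination (FDR 0.0269), just short of the minimum change.

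Betacellulin and epiregulin, further ligands of EGFR and ERBB4, and amphiregulin, a ligand of EGFR, were near the limit of detection. A count of 3, the limit that 0 counts allow, corresponded to 0.257 to 0.316 CPM before TMM scaling, for counting error only. Btc had 12, 7 and 3 counts in control, 0, 1 and 2 with trametinib, 2, 10 and 7 with cediranib, and 1, 0 and 0 with the combination. The Btc values with trametinib and with the combination lay below every control value. The ratio to control of its summed scaled counts was 0.136 with trametinib (95% interval 0.0261 to 0.453, from an exact binomial interval for counting error only) and 0.0452 with the combination (0.0011 to 0.28). A two-sided exact permutation test of CPM gave p = 0.1 for both, which with 3 tumors per group is the lowest value possible. Where low counts were not filtered, edgeR called Btc lower with the combination, at -3.98 compared to control (FDR 0.0171) and -3.80 compared to cediranib (FDR 0.0363), and not with trametinib (-2.72, FDR 0.135).

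Ereg had 10, 4 and 7 counts in control and 1, 2 and 0 with trametinib, a ratio of 0.143 (95% interval 0.0272 to 0.478; exact permutation test, two-sided, p = 0.1) with no overlap between the groups. With the combination it had 4, 5 and 0 counts, which overlapped control (ratio 0.426, 95% interval 0.172 to 0.97; exact permutation p = 0.2). With cediranib it had 3, 13 and 7 counts. Areg had 9 counts over the 3 control tumors, 1 with trametinib, 3 with cediranib and 2 with the combination, and all groups overlapped. Its ratio to control was 0.111 with trametinib, with a 95% counting interval of 0.00253 to 0.801, and a difference of these tumors was not detectable at this depth (two-sided exact permutation test, p = 0.2). Without the filter neither Ereg (-2.62, FDR 0.127) nor Areg (-2.78, FDR 0.549) was called with trametinib by edgeR. Erbb4, the receptor that binds both neuregulins and HB-EGF, had 0 counts in the 3 control tumors, 4 in trametinib replicate 1 and 0 in the other two, 1 count with cediranib, and 3, 9 and 0 with the combination.

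**Figure D2:**
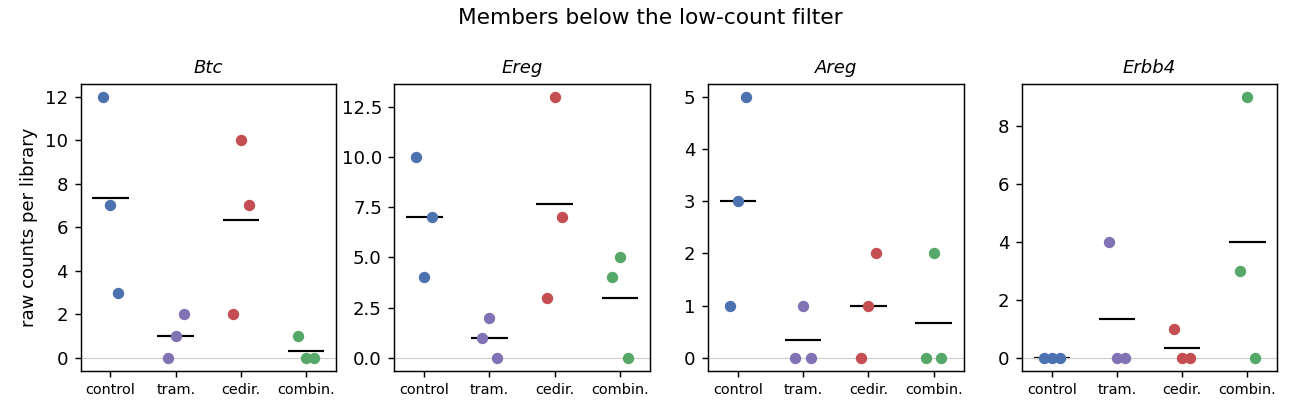
Raw counts per library (vertical axes) of the 4 members that did not pass the low-count filter, by treatment. Points are single tumors and bars the mean (n = 3). Btc has at most 2 counts in the 6 tumors that received trametinib and 2 to 12 in the other 6, and Erbb4 has no counts in control.

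Nrg1, the ligand of ERBB3 and ERBB4, did not follow the EGFR ligands. It lies at chr8:31814551-32884029 on the minus strand. The control tumors had 16.3, 9.93 and 29.4 CPM, the trametinib treated tumors 27.2, 42.5 and 14.8 CPM, the cediranib treated tumors 14.9, 16.6 and 15 CPM, and the combination treated tumors 8.38, 14.8 and 14.8 CPM. Control and trametinib treated tumors overlapped widely. Log2 fold changes compared to control were 0.60 with trametinib (SE 0.41, FDR 0.454), -0.26 with cediranib (0.41, FDR 0.999) and -0.55 with the combination (0.41, FDR 0.425). Between combination and trametinib the difference was -1.15 (SE 0.41, FDR 0.174). The groups did not overlap, though the highest combination and lowest trametinib values both round to 14.8 CPM. The combination also lay just under all cediranib values, at -0.29 (SE 0.41, FDR 0.72).

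Erbb2, the receptor without a known ligand, was highest in the tumors that received trametinib. It lies at chr11:98412470-98437716 on the plus strand. The control tumors had 4.34, 3.75 and 6.36 CPM and the cediranib treated tumors 2.60, 4.54 and 9.0 CPM. The trametinib treated tumors had 10.5, 10.9 and 12.9 CPM and the combination treated tumors 18.1, 22.2 and 18.8 CPM. All 6 tumors with trametinib exceeded all 6 without it, and every combination value exceeded every value with trametinib alone. Erbb2 rose with the combination compared to control, by 2.03 on the log2 scale (SE 0.36, 4.08-fold, FDR 0.00696), and compared to cediranib, by 1.87 (SE 0.36, 3.65-fold, FDR 0.0102). With trametinib alone the log2 fold change was 1.25 (SE 0.36, 2.38-fold, FDR 0.061), which did not pass. Combination against trametinib gave 0.78 (SE 0.34, FDR 0.262), and the effect of trametinib with and without cediranib differed by 0.62 (SE 0.50, FDR 0.838).

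The combination treated tumors had both the highest Erbb2 and the highest summed epidermis markers, 3010 to 4590 CPM. In cediranib replicates 1 and 3, with sums of 2930 and 1840 CPM, Erbb2 had 2.60 and 9.0 CPM, and in the trametinib treated tumors, with sums of 5.44 to 12.1 CPM, it had at least 10.5 CPM. Whether skin content had a part in the Erbb2 level was not tested by these values. Compared to those 2 cediranib libraries alone, that is without cediranib replicate 2, the combination gave 1.76 (FDR 0.038). With the epidermal score in the model the change was 1.8 compared to cediranib (FDR 0.0391), still called, and 1.88 compared to control (FDR 0.192), no longer called. This score was 3.78 to 4.38 with the combination, -0.81 to 2.06 in control and -0.6 to 3.58 with cediranib. Because these ranges do not overlap that of the combination, the score and the treatment cannot be told apart. With the endothelial score the Erbb2 change was 1.46 compared to control (FDR 0.449), and the call compared to cediranib was lost (FDR 0.171). Macrophage markers were lowest in the combination treated tumors, with a Pearson r over the 12 libraries of -0.68 with Erbb2 and -0.70 with Erbb3, and their part in these results was not tested. Exons of Mien1, on the opposite strand, overlap those of Erbb2, and without the strand setting reads of this pair cannot be told apart either. Mien1 had 16.5 to 21.5 CPM in control and 16.8 to 21.6 CPM in combination treated tumors.

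Tgfa and Erbb2 were called in opposite directions, and their promoters are shown for this contrast. The sequences are those of RefSeq on GRCm38.p6, from 250 bases before to 50 bases after the gene start in RefSeq, 5′ to 3′. For Erbb2 this start differs from the one given above. RefSeq entries matched 6 of the 10 members. Capitals mark matches on either strand to an ETS core (GGAAG) or an AP-2 motif (GCCNNNGGC), and the AP-1 motif (TGANTCA) and an EGR motif (GCGNGGGCG) were searched in the same way. ETS, AP-1 and EGR factors are transcription factors at the end of the ERK pathway, and AP-2 factors act in epidermis.
Tgfa chr6:86194972-86195271: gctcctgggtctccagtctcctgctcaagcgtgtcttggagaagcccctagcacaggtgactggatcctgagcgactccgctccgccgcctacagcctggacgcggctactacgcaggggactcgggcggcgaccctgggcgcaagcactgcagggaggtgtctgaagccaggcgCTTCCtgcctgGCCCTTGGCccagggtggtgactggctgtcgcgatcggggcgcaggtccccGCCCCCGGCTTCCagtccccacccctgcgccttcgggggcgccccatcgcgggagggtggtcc
Erbb2 chr11:98412234-98412533: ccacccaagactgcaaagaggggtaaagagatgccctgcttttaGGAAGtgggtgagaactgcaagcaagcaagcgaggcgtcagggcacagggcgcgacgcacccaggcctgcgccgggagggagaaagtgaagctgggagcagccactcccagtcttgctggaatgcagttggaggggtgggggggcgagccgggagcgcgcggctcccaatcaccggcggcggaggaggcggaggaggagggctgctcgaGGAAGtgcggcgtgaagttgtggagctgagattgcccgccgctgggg
The Tgfa promoter holds 2 ETS core matches, starting at bases 176 and 246 on the minus strand, and 2 AP-2 matches at bases 187 and 238, the second of which shares a base with an ETS match. The Erbb2 promoter holds 2 ETS core matches, at bases 45 and 254, and 0 AP-2 matches. Neither holds an AP-1 or EGR match in these letters. Over all 32851 promoters in the table, 71.4% hold the ETS core, 16.6% the AP-2 motif, 7.81% the AP-1 motif and 5.55% the EGR motif, so the ETS matches are what most promoters have.

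Erbb3, the receptor with a weak kinase that binds neuregulins and recruits PI3 kinase, was highest in the tumors with most skin transcripts. It lies at chr10:128567523-128589652 on the minus strand. The control tumors had 1.11, 0.304 and 0.202 CPM and the trametinib treated tumors 0.999, 0.931 and 0.0837 CPM. The cediranib treated tumors had 4.40, 0.662 and 5.45 CPM and the combination treated tumors 5.45, 10.5 and 8.54 CPM. Only cediranib replicates 1 and 3 and the combination treated tumors exceeded 2 CPM, and these are the 5 libraries with the highest epidermis markers. Erbb3 rose with the combination compared to control, by 3.85 (SE 0.82, 14.4-fold, FDR 0.0142). Its raw counts were 13, 3 and 2 in control, and 11, 8 and 1 with trametinib. The lowest of these lie at or under the limit of 3 counts given above, so the size of the fold is uncertain. Cediranib against control gave 2.63 (SE 0.82, FDR 0.999), or 0.24 without cediranib replicates 1 and 3, and trametinib against control 0.22 (SE 0.94, FDR 0.93). Combination against cediranib gave 1.22 (SE 0.69, FDR 0.316), and from -0.01 to 3.61 over the alternative fits.

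Compared to trametinib, the combination gave 3.63 for Erbb3 (SE 0.81, FDR 0.0605) with no overlap. In this comparison edgeR's quasi-likelihood test called 0 members and 0.675% of all genes (0.535% higher and 0.14% lower), a share that was 0.0% without combination replicate 2 and 1.61% without cediranib replicate 2. At an unadjusted p under 0.05 there were 3 members and 17.9% of all genes, and DESeq2 and the likelihood ratio test each called 1, Erbb3. With the epidermal score in the model the change in Erbb3 was 1.34 compared to control (FDR 0.534) and -0.44 compared to trametinib (FDR 0.995). The score was 3.78 to 4.38 with the combination, -0.81 to 2.06 in control and -1.66 to -1.34 with trametinib. In both comparisons the score and the treatment therefore cannot be told apart. Across the 12 libraries, which share treatment groups and skin content, log2 CPM of Erbb3 had a Pearson r of 0.92 with the epidermal score, and r was 0.27 for Erbb2, 0.12 for Tgfa and 0.03 for Hbegf. Schwann cells also express Erbb3, and 9 of their markers summed to 5.46 to 8.01 CPM in control and 6.77 to 12.3 CPM with the combination, and their Pearson r with Erbb3 was 0.68. Of the 9, S100b, Cdh19, Pmp2 and Gjc3 had 0 counts in control and Pmp2 and Gjc3 had 0 counts with the combination. Erbb3 was no longer called in combination against control when control replicate 2 (3.58, FDR 0.058) or control replicate 3 (3.48, FDR 0.061) was left out.

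**Figure D3:**
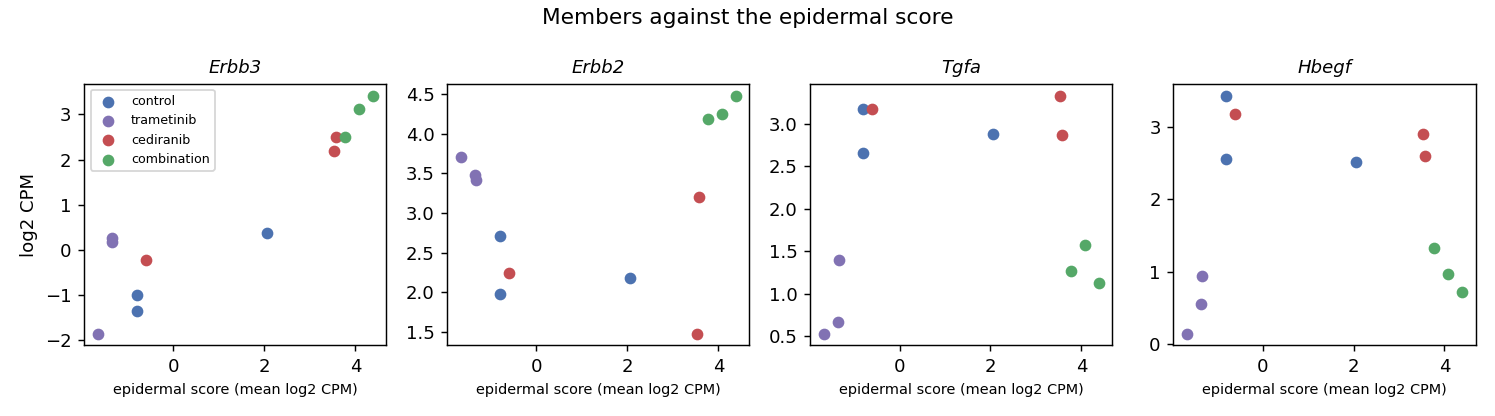
Log2 CPM of 4 members (vertical axes) against the epidermal score, the mean log2 CPM of 21 epidermis markers (horizontal axes), with 1 point per tumor colored by treatment. Erbb3 increases along the score, while Tgfa and Hbegf separate the tumors with trametinib from those without at both ends of it.

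Egfr, the receptor of the ligands that fell, was not called in any comparison. It lies at chr11:16752203-16918158 on the plus strand. The control tumors had 4.43, 4.76 and 10.5 CPM, the trametinib treated tumors 5.99, 16.8 and 2.18 CPM, the cediranib treated tumors 3.70, 6.24 and 3.83 CPM and the combination treated tumors 6.16, 2.63 and 5.85 CPM. All groups overlapped with control. Compared to control the log2 fold changes were 0.33 with trametinib (SE 0.60, FDR 0.824), -0.51 with cediranib (0.61, FDR 0.999) and -0.43 with the combination (0.61, FDR 0.703). Trametinib replicate 2 set the first of these, which was -0.68 without it. The level of Egfr went with fibroblast markers across the 12 libraries (Pearson r of 0.72, and 0.68 for Nrg1), and these markers summed to 8110 to 37000 CPM in trametinib treated and 2070 to 21100 CPM in control tumors. The sums were 1610 to 6770 CPM with cediranib and 2650 to 5340 CPM with the combination, so combination and trametinib did not overlap.

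**Figure D4:**
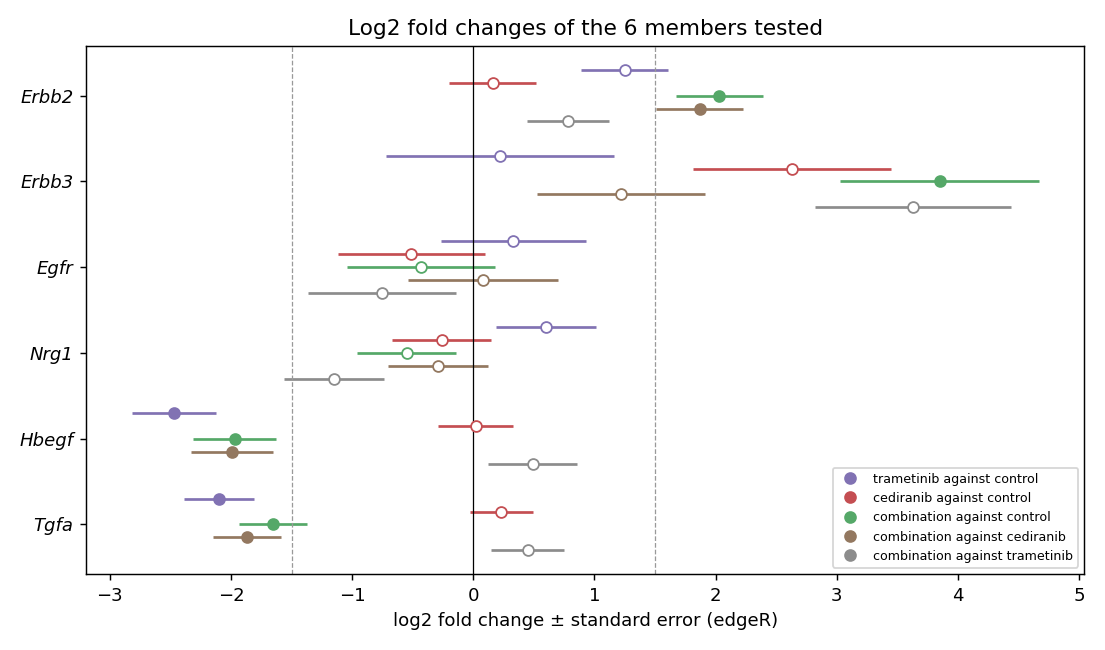
Log2 fold changes with standard errors (horizontal axis, edgeR) of the 6 members tested in 5 comparisons. Filled points passed an FDR of 0.05 with an absolute change of at least 1.5 (dashed lines). Tgfa and Hbegf are filled in each comparison that sets trametinib against a group without it, Erbb2 in both combination comparisons of that kind, and Erbb3 only in combination against control.

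Levels of different members can be set side by side only per length, here as CPM per kilobase of the length given in the count table, and exome capture probes add differences between genes that this does not remove. In control tumors Hbegf had 3.06 ± 1.22, Nrg1 1.79 ± 0.959, Tgfa 1.13 ± 0.21, Erbb2 0.925 ± 0.263 and Egfr 0.58 ± 0.302 CPM per kilobase (mean ± SD, n = 3), and the ranges of each neighboring pair in this order overlapped. The other members had at most 0.245 CPM per kilobase. In combination treated tumors Erbb2 came first, at 3.78 ± 0.416, and did not overlap with Erbb3, at 1.36 ± 0.425, which came next. Nrg1, at 1.22 ± 0.357, came after Erbb3 and overlapped with it. Then came Hbegf at 0.778 ± 0.186, Egfr at 0.431 ± 0.172 and Tgfa at 0.36 ± 0.0625, of which Egfr and Tgfa overlapped. The length of Hbegf was 2373 bases in the table and 4834 bases in GENCODE M21, so its place in the order depends on the annotation.

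Genes most alike in pattern were taken as the 3 with the highest Pearson r of log2 CPM over the 12 libraries. For Tgfa they were Itga6 (0.978), Hbegf (0.977) and Rhbdf2 (0.976), for Hbegf Lamb1 (0.980), Soat1 (0.980) and Tgfa (0.977), for Erbb2 Slc44a1 (0.973), Adk (0.944) and Pde5a (0.936), and for Erbb3 Tfap2b (0.981), Grhl1 (0.964) and Tfap2a (0.954). Tfap2a, Tfap2b and Grhl1 encode transcription factors of surface epithelium.

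Of the proteins that release the ligands from the membrane, the iRhom gene Rhbdf2 fell with trametinib. Its product escorts the sheddase ADAM17 to the cell surface. Rhbdf2 had 32.5 to 36.8 CPM in control, 10.0 to 12.6 CPM with trametinib, 39.6 to 46.7 CPM with cediranib and 13.0 to 14.7 CPM with the combination. Trametinib against control gave -1.59 (SE 0.14, FDR 9.46e-05), and combination against control -1.33 (SE 0.14, FDR 0.00045), which is under the minimum change for a call. Combination against cediranib gave -1.65 (SE 0.14, FDR 0.000202) and was called. The other 3 genes of this list were not called, with log2 fold changes with trametinib of 0.06 for Adam17, 0.14 for Adam10 and 0.17 for Rhbdf1.

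Further down the pathway, 0 of 6 genes for adaptors and RAS exchange factors, 0 of 11 tested genes for receptor turnover and inhibition and 0 of 5 tested transcription factors that act on the receptor genes were called by edgeR with trametinib. At an unadjusted p under 0.05 there were 1, 5 and 4, against 20.7% of all genes, and DESeq2 called 0 in each list. With the combination the calls by edgeR and by DESeq2 were also 0 in each, with 1, 4 and 4 at an unadjusted p under 0.05 against 27.2% of all genes, and the likelihood ratio test called 1 transcription factor. Several passed an FDR of 0.05 with a smaller change. Socs5, which targets EGFR for degradation, had -1.19 with trametinib (FDR 0.00657). Foxo3, a factor that activates receptor genes when AKT is low, had 0.98 (FDR 0.0143), and Ctbp2, a corepressor that acts on Erbb3, had -0.75 with trametinib (FDR 0.00339) and -0.76 with the combination (FDR 0.00404). Foxo1 had 1.22 with the combination (FDR 0.0188) and Lrig2 0.67 (FDR 0.0114). Among the other ligands, Nrg4 had 14.0 to 16.9 CPM in control and 17.1 to 18.2 CPM with trametinib (log2 fold change 0.16, FDR 0.586), and 12.4 to 14.9 CPM with the combination (-0.19, FDR 0.407). Nrg2 had 0.507 to 1.02 CPM in control and 2.00 to 2.63 CPM with the combination (log2 fold change 1.41, FDR 0.121). Egf, Epgn and Nrg3 did not pass the filter on low counts.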

How the data were processed

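RNA from 12 whole tumors was captured with exome probes and sequenced. According to the study's methods, exome capture was picked because RNA of the tumors was degraded at relatively high rates. The authors deposited raw counts per gene, made without normalization from STAR 2.7.1a alignments (GRCm38) by featureCounts 1.6.0. For annotation release, strand setting and multiply aligned reads, the choices made were not given in the sources used here. The deposited table also gave gene lengths, whose unit is bases. Every count column belonged to 1 of the 12 tumors.

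Groups came from sample titles. Genes were filtered with filterByExpr (minimum count 10, minimum total 15), scaled with TMM (factors 0.908 to 1.1) and tested by quasi-likelihood in edgeR 4.0.16 (R 4.3.3) over all 12 libraries, with a biological coefficient of variation of 27.2%. Standard errors are the absolute log2 fold change over the square root of F, and the prior count for log2 CPM was 2. The script was tested on simulated data. Alternatives were the likelihood ratio test, DESeq2 1.42.0, other scalings, no filter, only the groups compared, a replicate block, an epidermal score and leaving out each library. An endothelial score and leaving out cediranib replicates 1 and 3 were added after the data were seen. Counting ratios used exact 95% binomial intervals. Overlaps were taken from GENCODE M21.

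The members, the gene and marker lists and the tests were chosen with earlier results of these data known. By the rule for naming genes, all 10 members were described and the 3 genes most alike were given for each called member. Pathway genes called in trametinib or combination against control were named, at most the 3 with the smallest p per list and comparison. The other pathway genes and overlapping genes named were chosen after their values were seen. No pair of libraries was identical (0 pairs).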

Additional observations from a re-analysis of the deposited data

How the results depend on the processing

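The calls of Tgfa and Hbegf with trametinib compared to control held in all alternatives except the endothelial score, with log2 fold changes of -2.46 to -1.55 and -2.73 to -1.46, as did those of Tgfa, Hbegf and Erbb2 in combination against cediranib. With the endothelial score the count of called members was 0 for trametinib against control, combination against control and combination against cediranib, and with the epidermal score it was 0 for combination against control. For cediranib against control it was 1 without the low-count filter (Erbb3). For combination against trametinib it was 1, again Erbb3, with the likelihood ratio test, library totals only, no filter, only the groups compared, DESeq2, and without cediranib replicates 1 and 3. With single libraries left out the count ran from 0 to 1 for combination against trametinib (1 without control replicate 1 or cediranib replicate 2) and from 2 to 4 for combination against control (2 without control replicate 3, Erbb2 and Hbegf). Without cediranib replicates 1 and 3 the remaining cediranib tumor is assumed to vary like the other groups.

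Changes of sign fell on values not called. With the epidermal score Egfr had 0.39 for combination against control, 0.34 against trametinib and 0.46 for the difference in trametinib effect with and without cediranib, and Erbb3 had -0.44 for combination against trametinib and -1.51 for that difference. With the endothelial score Egfr had 0.12 for cediranib and 1.64 for combination against control, Erbb2 -0.05 for cediranib against control, Erbb3 -1.22 for trametinib against control and -0.01 for combination against cediranib, and Nrg1 0.24 for combination against control and 0.25 when set against cediranib. Without cediranib replicates 1 and 3 Erbb2 had -0.09 for cediranib against control and Egfr -0.35 for combination against cediranib. The cause was not tested. With single libraries left out, Egfr ran from -0.68 to 0.84 for trametinib against control, and for the combination -0.65 to 0.08 against control, -1.21 to 0.26 against trametinib and -0.10 to 0.40 against cediranib, and -0.75 to 0.77 for the difference in effect. Erbb3 ran from -0.26 to 1.32 for trametinib against control and -0.10 to 1.49 for the difference in effect. For cediranib against control Erbb2 ran from -0.44 to 0.49, Nrg1 from -0.56 to 0.24 and Hbegf from -0.15 to 0.39.

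With the replicate number as a block, called members in the 5 comparisons numbered 2, 0, 4, 0 and 3, as without it. Deviations of same-numbered libraries correlated from -0.219 to 0.356 (median -0.008) and others from -0.438 to 0.354 (median 0.007). No pairing by number was seen, and with 3 tumors per group this does not exclude one. Over all genes, combination against trametinib gave 69 higher and 18 lower calls, 44 and 13 with the block, 302 and 99 with the likelihood ratio test, 253 and 94 with DESeq2, 224 and 50 in the groups compared alone, 486 and 287 without the filter and 2 and 0 with the epidermal score. Combination against control gave 35 and 46 with the epidermal score and 10 and 9 with the endothelial score, compared to 246 and 220. Cediranib against control gave 178 and 146 without the filter, 12 and 2 with the likelihood ratio test, 7 and 3 with DESeq2 and 7 and 0 without cediranib replicate 2. The endothelial score left 79 and 73 for trametinib against control (126 and 184) and 87 and 51 for combination against cediranib (166 and 150), and without cediranib replicates 1 and 3 the latter had 58 and 63. Combination against trametinib moved by over 1.5 times when 1 library was left out, other than control replicates 2 and 3 and cediranib replicate 3, from 0 and 0 without combination replicate 2 (edgeR, 2009 at an unadjusted p under 0.05) to 175 and 33 without cediranib replicate 2. Scaling by library totals only moved the median log2 fold change of all genes by up to 0.13 and turned no member.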

Other observations

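Ratios within a library do not depend on its scaling. Tgfa and Hbegf together made up 38.6 to 50.9% of the summed CPM of the 6 ligands in control tumors, 43.8 to 52.8% with cediranib, 5.87 to 13.3% when trametinib was given alone and 18.3 to 33.8% when both drugs were given, and the last 2 groups lay below the others and did not overlap. Per length, the ratio of Erbb2 to Egfr was 2.13, 1.71 and 1.32 in the control tumors and 1.53, 1.58 and 5.11 in the cediranib treated tumors. With trametinib alone the ratio was 3.82, 1.42 and 12.9, and with both drugs it was 6.38, 18.3 and 7.0. Every combination value lay above every control and cediranib value, while the trametinib values overlapped both. Capture probes for the genes differ, so the ratios can be set against each other between tumors but not read as molecules per molecule.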
